A study of Homo sapiens with 24 samples.

Results

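Mucins are long glycoproteins whose serine- and threonine-rich stretches carry dense O-linked sugars. The membrane mucins (MUC1, MUC4, MUC13, MUC16 and MUC20 here) stay anchored on the cell surface, where they form part of the glycocalyx and can bind growth factor receptors. The gel-forming mucins (MUC5AC and MUC5B) are packed into granules, secreted, and make up airway mucus. The genes described are the 7 rows of the expression table with these symbols, out of 22026 genes in the table, and all 7 were found.

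A549, an established line of human lung adenocarcinoma, was grown in CAF conditioned medium or in control medium. The labels leave CAF unexplained, which usually stands for cancer-associated fibroblast, and they say nothing more of the cells behind the medium. Cells were harvested after 3, 6, 12, 24, 48 or 72 h, and polyadenylated RNA was sequenced in 12 libraries, 1 per medium and time. There were therefore 6 CAF medium libraries and 6 control medium libraries, all of the A549 line. The series concerns markers of epithelial-mesenchymal transition. Its design text mentions 2 biological replicates, but the table holds 1 value per medium and time, so no single time has a replicate check. The 6 times served as replicates of the medium effect, and p-values measure only how these libraries scatter, which may be technical.

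Levels are in RPKM, reads scaled to the length of the gene model and to the mapped reads of the library. The spacing of low values gave 23.9 to 40.6 M reads per library, with 26.5 to 29.3 M for CAF and 23.9 to 27.5 M for control medium at 3 to 12 h, and 33.9 to 40.6 M for CAF and 35.4 to 40.1 M for control medium at 24 to 72 h. Later libraries were deeper in both media. All 6 markers of simple epithelium reached 1 RPKM, and their summed level was 3299 to 5530 RPKM in CAF medium and 4280 to 5043 RPKM in control medium. Nearly all of it came from KRT8, KRT18 and KRT7. The other 3 were called higher in CAF medium in at least 1 fit, EPCAM over the 6 times (log2 0.82, limma adjusted p = 0.0174) and late (1.03, 0.0202), the keratin KRT19 early (1.58, 0.0217) and the cadherin CDH1 late (0.94, 0.0434), and their part in the mucin values was not tested. Of the goblet and mucous cell markers, 3 of 11 in the table reached 1 RPKM in any library (AGR2, CREB3L1 and KLF4), and the summed level was 8.42 to 21.1 RPKM in CAF medium and 8.26 to 19.7 RPKM in control medium. SPDEF, the master regulator of goblet cells, peaked at 0.61 RPKM, and the goblet products CLCA1 and FCGBP peaked at 0.01 and 0.07 RPKM. Of the alveolar type 2 markers, 2 of 7 reached 1 RPKM (ABCA3 and NAPSA), with sums of 6.04 to 10.6 RPKM in CAF medium and 6.29 to 10.2 RPKM in control medium, and surfactant gene SFTPC and the lung factor NKX2-1 stayed at or below 0.18 and 0.03 RPKM. Neither of the 2 club and ciliated cell markers in the table reached 1 RPKM. Of the fibroblast markers, 5 of 10 reached 1 RPKM in any library (COL1A1, FAP, THY1, LUM and PDGFRA). The 10 summed to 8.67 to 12.0 RPKM in CAF medium and 4.89 to 11.7 RPKM in control medium. FAP had 1.67 to 4.71 RPKM in CAF medium and 2.11 to 4.09 RPKM in control medium. THY1 peaked at 2.22 RPKM in CAF medium and 1.18 RPKM in control medium. The fibroblast genes COL1A2, COL3A1 and PDGFRB peaked at 0.12, 0.16 and 0.07 RPKM. The collagen gene COL1A1 was higher in CAF medium over 3 to 12 h (log2 change 1.11, limma adjusted p = 0.0259), and the part of such cells in the mucin values was not tested. Of the blood and endothelial markers, 2 of 7 reached 1 RPKM, with sums of 14.4 to 32.1 RPKM in CAF medium and 19.80 to 23.04 RPKM in control medium, nearly all from CD68, and the leukocyte gene PTPRC stayed at or below 0.04 RPKM.

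Promoter sequences of MUC1 and MUC13 are shown because these were the members expressed well enough to be tested, and they differed in makeup. Each line gives the 250 bases of the RefSeq promoter table for GRCh38.p14, on the strand of the gene, ending at the base before the annotated transcript start. Capitals mark matches, on either strand, to TATAAA (the TATA box), GGGCGG (the core of an SP1 site), TGANTCA (an AP-1 site) or TGACGTCA (a full cAMP response element). The MUC1 promoter lies at chr1:155192916-155193165 on the minus strand, and the MUC13 promoter at chr3:124934752-124935001 on the minus strand.
MUC1: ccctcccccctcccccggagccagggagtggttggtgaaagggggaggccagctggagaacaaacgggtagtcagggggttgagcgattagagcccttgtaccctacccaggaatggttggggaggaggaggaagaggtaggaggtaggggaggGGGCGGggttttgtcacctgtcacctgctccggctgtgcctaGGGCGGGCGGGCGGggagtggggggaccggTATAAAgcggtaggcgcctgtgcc
MUC13: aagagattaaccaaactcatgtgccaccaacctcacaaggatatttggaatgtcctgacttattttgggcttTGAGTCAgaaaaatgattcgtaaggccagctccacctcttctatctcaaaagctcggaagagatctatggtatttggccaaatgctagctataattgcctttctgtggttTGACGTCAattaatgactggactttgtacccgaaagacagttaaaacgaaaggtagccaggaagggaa
The MUC1 promoter had 66.0% G and C, against a median of 58.0% over the 35116 promoters of the table, with 1 TATAAA at bases -24 to -19 and 4 GGGCGG matches. The GGGCGG matches started at -96, -54, -50 and -46, and the last 3 overlap each other. MUC1 has another annotated start, whose window is not printed. Counted from it, TATAAA lies at -30 to -25 and the GGGCGG matches start at -102, -60, -56 and -52. The MUC13 promoter had 41.6% G and C, 1 TGANTCA match at -178 to -172 and 1 TGACGTCA match at -68 to -61, and neither TATAAA nor GGGCGG. Over all 35116 promoters, TATAAA occurred in 10.7%, GGGCGG in 42.6%, TGANTCA in 6.57% and TGACGTCA in 1.65%. TTCNNNGAA (STAT sites), a loose NF-kB motif (GGGA, 4 free bases and CC) and TGTTTNC (forkhead sites) were searched too, and neither promoter held them, while 6.57%, 22.6% and 15.5% of all promoters did. These matches describe letters in the window and do not show that a factor bound. The table held promoters for 4 of the 7 mucin genes, and those of MUC4 and MUC16 are not printed because both genes were near 0.

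Levels per length fell into 3 tiers. MUC13, on chromosome 3 with a gene model of 2876 bases, averaged 10.3 RPKM over the 12 libraries, above 78.4% of all genes in the table. MUC1, on chromosome 1 with a model of 2885 bases, averaged 3.36 RPKM, above 59.6% of genes. MUC5B (chromosome 11, 20243 bases), MUC20 (chromosome 3, 6647 bases) and MUC5AC (chromosome 11, 3978 bases) averaged 0.315, 0.255 and 0.138 RPKM. MUC16 (chromosome 19, 43837 bases) and MUC4 (chromosome 3, 18473 bases) averaged 0.00833 and 0.0025 RPKM. Only MUC1 and MUC13 had the mean of at least 1 RPKM required for testing, so 2 of 7 members entered the fits that 12029 of 22026 genes entered.

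MUC13 was above MUC1 in 6 of 6 CAF medium libraries and 6 of 6 control medium libraries, and MUC1 was above MUC5B in 6 of 6 of each. Within the middle tier MUC5B was above MUC20 in 1 of 6 CAF medium libraries and in 4 of 6 control medium libraries, so those 2 genes had no stable order. MUC20 was above MUC5AC in 6 of 6 CAF medium libraries and in 5 of 6 control medium libraries. MUC16 was above MUC4 in 3 of 6 libraries of each medium, and the rest were equal or, in 1 CAF medium library, the other way round.

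**Figure D1:**
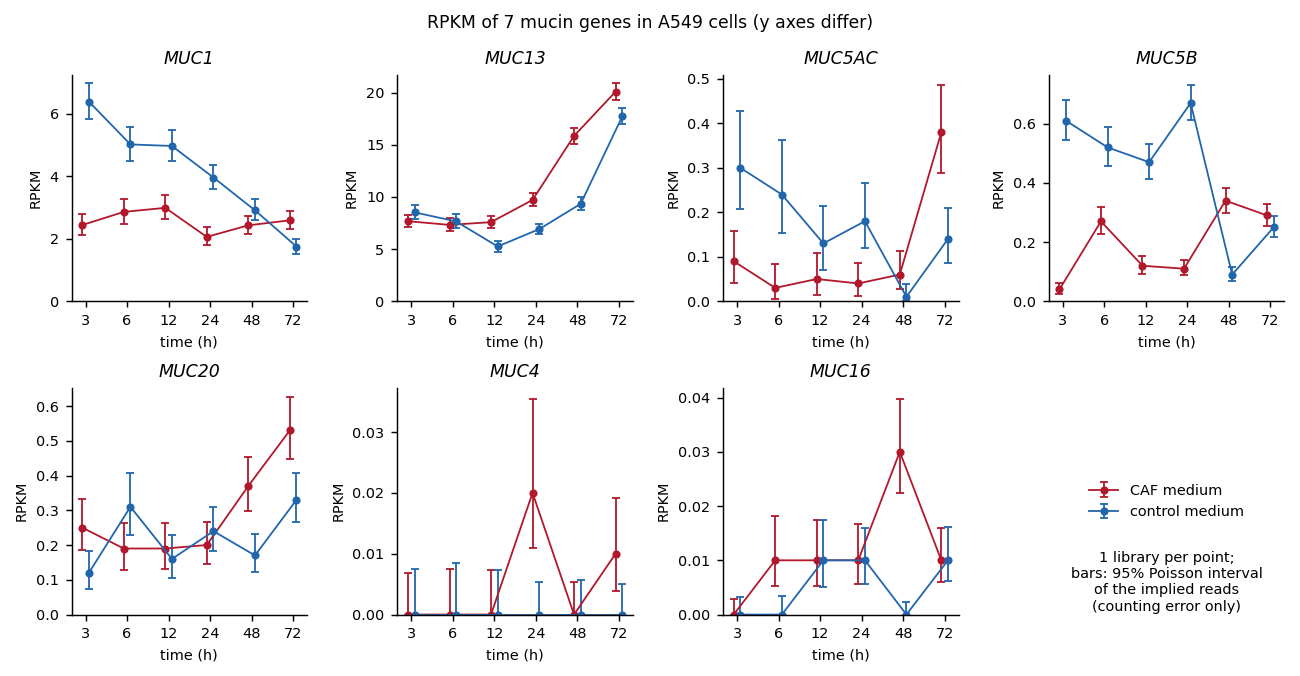
RPKM of each of the 7 mucin genes (vertical axes, which differ) against time in h, with CAF medium in red and control medium in blue, 1 library per point and 95% Poisson intervals of the implied reads as bars. MUC1 in control medium declined from 3 to 72 h and stayed between 2.06 and 2.99 RPKM in CAF medium, and MUC13 was highest at 72 h in both media.

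MUC1, which can be cleaved at the surface and whose cytoplasmic tail binds signalling proteins, was lower in CAF medium at the early times. At 3, 6 and 12 h it had 2.44, 2.86 and 2.99 RPKM in CAF medium, against 6.39, 5.02 and 4.97 RPKM in control medium. The 2 groups did not overlap, but the share of all genes without overlap at these times was not counted, so nothing is read from that. The level in CAF medium was 0.382 times that of control at 3 h (95% interval 0.323 to 0.450, from 206 CAF and 490 control reads), 0.570 times at 6 h and 0.602 times at 12 h. The intervals on these ratios cover counting error only. Over 3 to 12 h MUC1 was lower by limma, with a log2 change of -0.86 ± 0.22 (SE, 3 pairs, adjusted p = 0.0430 over 12029 genes), and lower in 3 of 3 pairs. In that fit 3.77% of tested genes were called higher and 1.86% lower. The call was near the threshold and was lost with quantile normalization (adjusted p = 0.0569), with no filter on low values (adjusted p = 0.181), and without the pair of 3 h (adjusted p = 0.137), 6 h (0.182), 12 h (0.146) or 48 h (0.0549), while the log2 change stayed between -0.97 and -0.68 when single pairs were left out.

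MUC1 was still well below control in CAF medium at 24 h, came closer at 48 h and crossed at 72 h, 1 pair each. At 24, 48 and 72 h it had 2.06, 2.43 and 2.59 RPKM in CAF medium, against 3.96, 2.91 and 1.75 RPKM in control medium. CAF medium was the lower at 24 and 48 h and the higher at 72 h, so the groups overlapped. The ratio of CAF to control medium was 0.520 at 24 h, 0.835 at 48 h and 1.48 at 72 h, the last with an interval of 1.24 to 1.78 from 303 CAF and 202 control reads. The medium effect over 24 to 72 h was not called (log2 -0.19 ± 0.22, limma adjusted p = 0.662), in a fit that called 1.36% of tested genes higher and 2.74% lower. The late effect minus the early effect was 0.68 ± 0.30 on the log2 scale and did not pass (limma adjusted p = 0.428), where 0.0582% of genes were called with a positive and 0.357% with a negative difference. A straight line of the medium difference on log2 hours, chosen after the values were seen, gave 0.29 ± 0.07 per doubling of time, unadjusted p = 0.00236 and limma adjusted p = 0.131. Over all 6 times MUC1 was lower at 5 and higher at 1, with a log2 change of -0.53 ± 0.18 that missed the threshold (limma adjusted p = 0.0865). That fit called 6.06% of genes higher and 4.13% lower. Without the 72 h pair the change was -0.72 and passed (limma adjusted p = 0.0160).

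Fitted in each medium alone, MUC1 had a slope that passed in control medium and not in CAF medium. The slope on log2 hours was -0.02 ± 0.06 per doubling of time in CAF medium (limma adjusted p = 0.838) and -0.31 ± 0.05 in control medium (limma adjusted p = 0.0102, 6 libraries each). Whether the slopes differ is the line test given above, which did not pass adjustment. With both media in 1 fit the slope was -0.17 ± 0.05 (limma adjusted p = 0.0237), in a fit that called 21% of genes higher and 13.3% lower with time. Libraries of 1 time are not independent there, so that p can be too small, and on the means of both media at each time it was 0.0150. The call was lost without the 6, 48 or 72 h pair, with adjusted p between 0.0551 and 0.0789.

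MUC13, a membrane mucin with epidermal growth factor-like domains that is best known from gut epithelium, increased with time in CAF medium. At 3, 6 and 12 h it had 7.67, 7.32 and 7.58 RPKM in CAF medium, against 8.52, 7.65 and 5.25 RPKM in control medium. At 24, 48 and 72 h it had 9.71, 15.85 and 20.09 RPKM in CAF medium, against 6.91, 9.34 and 17.71 RPKM in control medium. The early values overlapped, and from 12 h on each CAF medium library was above the control of its own time, although the late groups overlapped as a whole. The ratio of CAF to control medium was 1.44 at 12 h, 1.41 at 24 h and 1.70 at 48 h, the last with a counting interval of 1.57 to 1.84 from 1722 CAF and 951 control reads, and 1.13 at 72 h.

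No fit called a medium effect for MUC13. The log2 change was 0.28 ± 0.12 over the 6 times (limma adjusted p = 0.161), higher at 4 and lower at 2 of them. It was 0.10 ± 0.16 over 3 to 12 h (limma adjusted p = 0.749) and 0.46 ± 0.16 over 24 to 72 h (limma adjusted p = 0.130, higher in 3 of 3 pairs). The late minus early difference was 0.36 ± 0.22 (limma adjusted p = 0.580). With time MUC13 rose by 0.24 ± 0.06 per doubling (limma adjusted p = 0.00983). Within CAF medium the slope was 0.30 ± 0.06 (limma adjusted p = 0.0142), and within control medium it was 0.17 ± 0.09 (limma adjusted p = 0.197). The difference of these slopes was 0.13 ± 0.07 (limma adjusted p = 0.419). On the means of both media the adjusted p was 0.0346, and without the 72 h pair the slope was 0.13 with an adjusted p of 0.202, so the call with time rests on that pair.

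**Figure D2:**
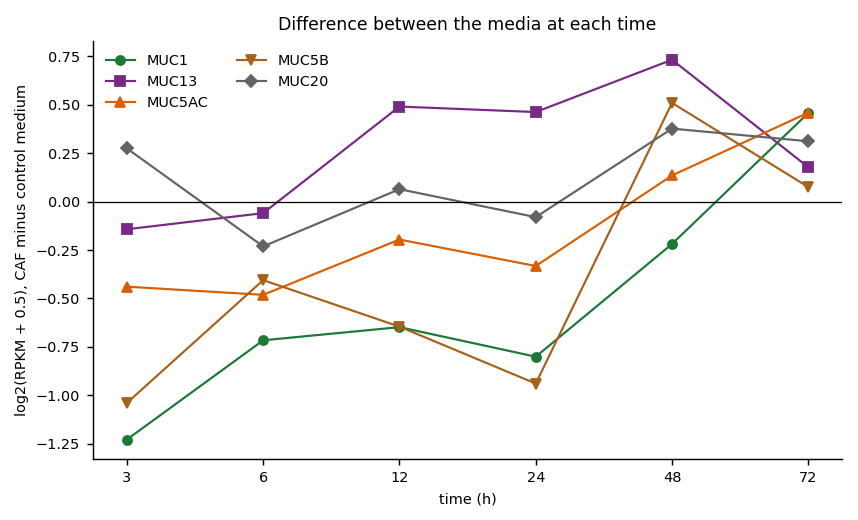
Difference in log2(RPKM + 0.5), CAF minus control medium (vertical axis), at each time in h for the 5 mucin genes with reads in every library, 1 pair of libraries per point. MUC1, MUC5B and MUC5AC lay below 0 at 3 to 24 h, and all 5 genes lay above 0 at 72 h.

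The gel-forming mucins were expressed at low levels and were below the mean needed for testing. MUC5B is the main gel-forming mucin of submucosal glands and small airways. At 3, 6 and 12 h it had 0.04, 0.27 and 0.12 RPKM in CAF medium, against 0.61, 0.52 and 0.47 RPKM in control medium. These early groups did not overlap, but here too the share of all genes without overlap was not counted, so nothing is read from that. At 24, 48 and 72 h it had 0.11, 0.34 and 0.29 RPKM in CAF medium, against 0.67, 0.09 and 0.25 RPKM in control medium, so the late groups overlapped. At 3 h it had 24 reads in CAF medium and 328 in control medium, an RPKM ratio of 0.0656 (95% interval 0.0420 to 0.101, counting error only). At 24 h it had 76 and 503 reads in CAF and control medium, an RPKM ratio of 0.164 (0.128 to 0.211). At 48 h the order was the other way, with 260 reads in CAF medium and 64 in control medium, an RPKM ratio of 3.78 (2.89 to 5.08). The ratio at 72 h, 1.16, had an interval of 0.957 to 1.40 that spans 1.

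With no filter on low values, a fit over 22026 genes gave MUC5B a log2 change of -0.70 ± 0.26 over 3 to 12 h (limma, unadjusted p = 0.0352, adjusted p = 0.258, lower in 3 of 3 pairs). Over 24 to 72 h it was -0.12 ± 0.26 (limma adjusted p = 0.892), and the late minus early difference was 0.58 ± 0.37 (limma adjusted p = 0.694). The unfiltered fits called few genes for the medium, so they say little about low genes. In limma they called 0.0% of genes over the 6 times (0 genes, with 4744 at an unadjusted p under 0.05), 0.0% over 3 to 12 h (0 genes, 3797 unadjusted), 0.163% over 24 to 72 h and 0.0% for the difference (0 genes, 1968 unadjusted), but 21.8% for change with time. Adding 0.5 RPKM before taking logs understates changes at these levels, so ratios of RPKM are given as well.

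MUC5AC, the inducible gel-forming mucin of surface goblet cells, had only 1 to 61 implied reads in a library. At 3, 6 and 12 h it had 0.09, 0.03 and 0.05 RPKM in CAF medium, against 0.30, 0.24 and 0.13 RPKM in control medium. These early groups of MUC5AC had no overlap, again without a count over all genes, so nothing is read from that either. At 24, 48 and 72 h MUC5AC had 0.04, 0.06 and 0.38 RPKM in CAF medium, against 0.18, 0.01 and 0.14 RPKM in control medium, with overlap. The 72 h CAF medium library was the highest of all 12, with 61 reads, against 22 reads in control medium (RPKM ratio 2.71, interval 1.66 to 4.69). At 6 h 3 CAF medium reads stood against 23 control reads, with an RPKM ratio of 0.125 (0.0226 to 0.390). At 48 h 9 CAF medium reads stood against 1 control read, and the interval of the ratio ran from 1.17 to 369.5. In the unfiltered fit the log2 change was -0.37 ± 0.14 over 3 to 12 h (limma adjusted p = 0.256), 0.09 ± 0.14 over 24 to 72 h (limma adjusted p = 0.834) and 0.46 ± 0.20 for the difference (limma adjusted p = 0.564).

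MUC5AC and MUC5B sit next to each other on chromosome 11, and at each of the 6 times their CAF minus control differences had the same sign, negative at 3 to 24 h and positive at 48 and 72 h. TOLLIP, the next gene beyond MUC5B and an adaptor of innate immune signalling, had log2 changes of -0.03 over 3 to 12 h (limma adjusted p = 0.901) and -0.01 over 24 to 72 h (limma adjusted p = 0.964). MUC2 and MUC6, the gel-forming mucins on the other side, peaked at 0.04 RPKM each. These 3 neighbours are named for their position and were chosen after their values were seen. BRSK2, also listed for this locus, was higher in CAF medium at 6 of 6 times. Its early log2 change of 0.59 passed (limma adjusted p = 0.0468), and its change over the 6 times did not (0.38, limma adjusted p = 0.0677). The rest of that list, MOB2, AP2A2 and CHID1, was not called between media.

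MUC20, a small membrane mucin reported to bind the receptor MET, showed no steady order between media. At 3, 6 and 12 h it had 0.25, 0.19 and 0.19 RPKM in CAF medium, against 0.12, 0.31 and 0.16 RPKM in control medium. At 24, 48 and 72 h it had 0.20, 0.37 and 0.53 RPKM in CAF medium, against 0.24, 0.17 and 0.33 RPKM in control medium. Both windows overlapped, and CAF medium was higher at 4 times and lower at 2. The largest ratio of RPKM was 2.18 at 48 h (1.49 to 3.24, from 93 CAF and 40 control reads). Unfiltered fits gave log2 changes of 0.04 ± 0.12 early (limma adjusted p = 0.939) and 0.20 ± 0.12 late (limma adjusted p = 0.492). The early value changed sign with median centring (-0.07) and with quantile normalization (-0.04). A pseudogene, MUC20P1, is annotated on the same chromosome, and reads shared with it cannot be told apart in these values.

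MUC4, a large membrane mucin that binds ERBB2, was listed at 0.00 RPKM in 10 of 12 libraries. It was 0.02 RPKM in CAF medium at 24 h and 0.01 RPKM at 72 h, from about 13 and 7 reads, and 0.00 RPKM at every time in control medium, where a floor of 3 reads corresponds to 0.00405 to 0.0068 RPKM. MUC16, which carries the CA-125 antigen and binds mesothelin, was between 0.00 and 0.03 RPKM in CAF medium and between 0.00 and 0.01 RPKM in control medium, and 4 of 12 libraries were at 0.00. Its highest value, 0.03 RPKM in CAF medium at 48 h, stands for about 50 reads over a model of 43837 bases. Values are rounded to 2 decimals, which leaves an uncertainty of 5.24 to 8.89 reads for MUC16, and no direction was read for either gene.

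At a single time, without a test, a difference of at least 1 in log2(RPKM + 0.5) was used to pick out large changes, a scale on which genes well under 1 RPKM can hardly pass. By that measure 2 of 7 mucin genes, MUC1 (-1.23) and MUC5B (-1.04), were lower in CAF medium at 3 h, where 0.772% of all 22026 genes were. No member passed it in the lower direction at 6, 12, 24, 48 or 72 h, where 0.686%, 0.899%, 0.495%, 1.91% and 0.481% of genes did. The ratios of RPKM of MUC5B at 24 h (0.164) and of MUC5AC at 6 h (0.125) were smaller than that of MUC1 at 3 h (0.382), and the added 0.5 RPKM keeps them under this threshold.

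The makeup of the mucin transcripts moved with these levels. Summed over the 7 genes, 10.5, 10.7 and 10.94 RPKM were found in CAF medium at 3, 6 and 12 h, against 15.9, 13.7 and 10.99 RPKM in control medium. At 24, 48 and 72 h the sums were 12.2, 19.1 and 23.9 RPKM in CAF medium, against 12.0, 12.5 and 20.2 RPKM in control medium. CAF medium was lower at 3 and 6 h, nearly equal to control at 12 and 24 h, and higher at 48 and 72 h. MUC13 made up 68.5 to 84.1% of the sum in CAF medium and 47.8 to 87.7% in control medium. The ratio of MUC13 to MUC1 was 3.14, 2.56 and 2.54 in CAF medium at 3 to 12 h, against 1.33, 1.52 and 1.06 in control medium. It was 4.71, 6.52 and 7.76 in CAF medium at 24 to 72 h, against 1.74, 3.21 and 10.1 in control medium. The ratio was higher in CAF medium at 5 of 6 times, and lower at 72 h. In these bulk libraries fewer cells of a kind and less RNA per cell cannot be told apart.

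**Figure D3:**
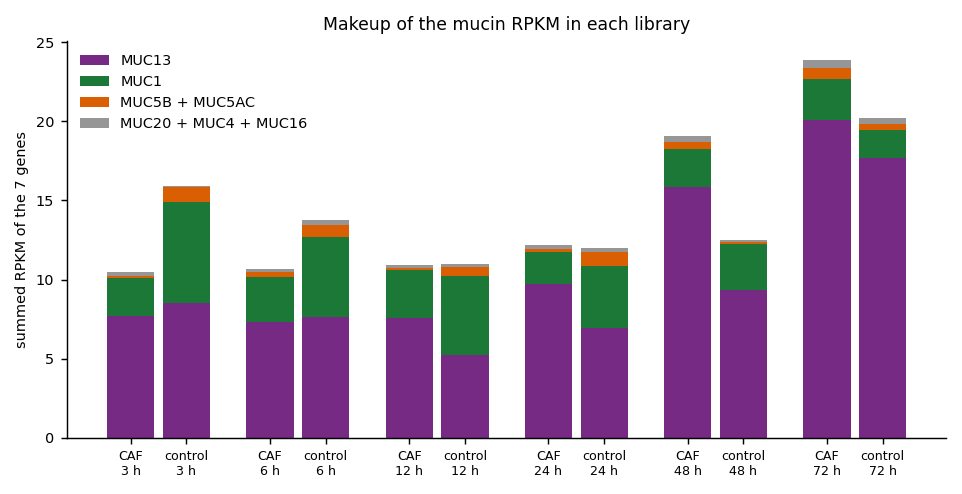
Summed RPKM of the 7 mucin genes (vertical axis) in each library, with CAF medium to the left of control medium at each time in h and colours for MUC13, MUC1, MUC5B plus MUC5AC, and MUC20 plus MUC4 plus MUC16. The CAF medium sum grew from 10.5 RPKM at 3 h to 23.9 RPKM at 72 h, and the MUC1 portion was larger in control medium at 3 to 48 h.

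Other mucins and related genes were counted against the same fits. Of 16 other mucin genes found, 5 were tested, and limma called 0 higher and 0 lower in the fits over the 6 times, early, late and for the difference, with 3589, 3034, 2561 and 1388 of all 12029 tested genes at an unadjusted p under 0.05. With time 1 was called higher (MCAM) and 1 lower (MUC3A), beside 21% and 13.3% of all tested genes. MUC3A, a membrane mucin of intestinal epithelium, had 1.87, 1.67, 1.84, 1.44, 1.65 and 1.39 RPKM in CAF medium from 3 to 72 h, against 2.23, 2.17, 1.44, 1.0, 0.50 and 1.04 RPKM in control medium. With both media in 1 fit its slope was -0.17 ± 0.05 per doubling of time (limma adjusted p = 0.0184). As with MUC1, the slope was shallow in CAF medium (-0.06 ± 0.05, limma adjusted p = 0.534) and steeper in control medium (-0.28 ± 0.07, limma adjusted p = 0.0247). The difference of slopes did not pass (0.22 ± 0.08, limma adjusted p = 0.295). Its near-identical partner MUC3B means that its reads are uncertain. MCAM, a cell adhesion molecule also named MUC18, rose with time by 0.24 per doubling (limma adjusted p = 0.00499) and had a log2 medium effect of 0.50 over the 6 times that missed the threshold (limma adjusted p = 0.0544).

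Enzymes that build mucin-type O-glycans were mixed. Of 36 found, 19 were tested, and over the 6 times limma called 1 higher and 1 lower, beside 6.06% and 4.13% of all tested genes, and the median log2 change was -0.03 against 0.00 for all tested genes. GCNT1, which starts core 2 branches, was higher in CAF medium at 6 of 6 times, with 2.64 to 4.58 RPKM in CAF medium and 1.75 to 3.30 RPKM in control medium (log2 0.44, limma adjusted p = 0.0337). GALNT10, which adds the first sugar, was lower at 6 of 6 times, with 20.5 to 47.6 RPKM in CAF medium and 33.9 to 54.6 RPKM in control medium (log2 -0.46, limma adjusted p = 0.0209). None passed early or late. With time limma called 9 higher and 3 lower, beside 21% and 13.3% of all tested genes, among them the core 1 chaperone C1GALT1C1 (0.28 per doubling, adjusted p = 0.000321) and GALNT12 (0.28, adjusted p = 0.000703). FUT3, the fucosyltransferase that makes Lewis antigens, was chosen after its values were seen. It had 0.07 to 4.54 RPKM in CAF medium and 0.03 to 0.57 RPKM in control medium, with a mean too low to be tested.

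Factors known to act on mucin genes gave 2 higher and 1 lower of 15 tested, both over the 6 times and over 3 to 12 h, and 0 higher and 0 lower late in limma, where 2561 of all genes had an unadjusted p under 0.05. Of all tested genes 6.06% were higher and 4.13% lower over the 6 times, and 3.77% and 1.86% early. FOXA2, a forkhead factor that restrains goblet cell differentiation in mouse airways, had 8.60 to 11.9 RPKM in CAF medium and 5.29 to 9.68 RPKM in control medium, and its early log2 change was 0.60 (limma adjusted p = 0.0383). CREB3L1, a membrane-bound factor of secretory cells, had 1.62 to 3.67 RPKM in CAF medium and 0.92 to 2.66 RPKM in control medium, with an early change of 0.94 (limma adjusted p = 0.0451). NFKB1, the p105 subunit of NF-kB, had 2.54 to 5.80 RPKM in CAF medium and 5.65 to 8.11 RPKM in control medium, and fell early by 0.98 on the log2 scale (limma adjusted p = 0.0109). It was lower in CAF medium at 6 of 6 times. The list median was -0.09 early, against 0.03 over all tested genes.

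**Figure D4:**
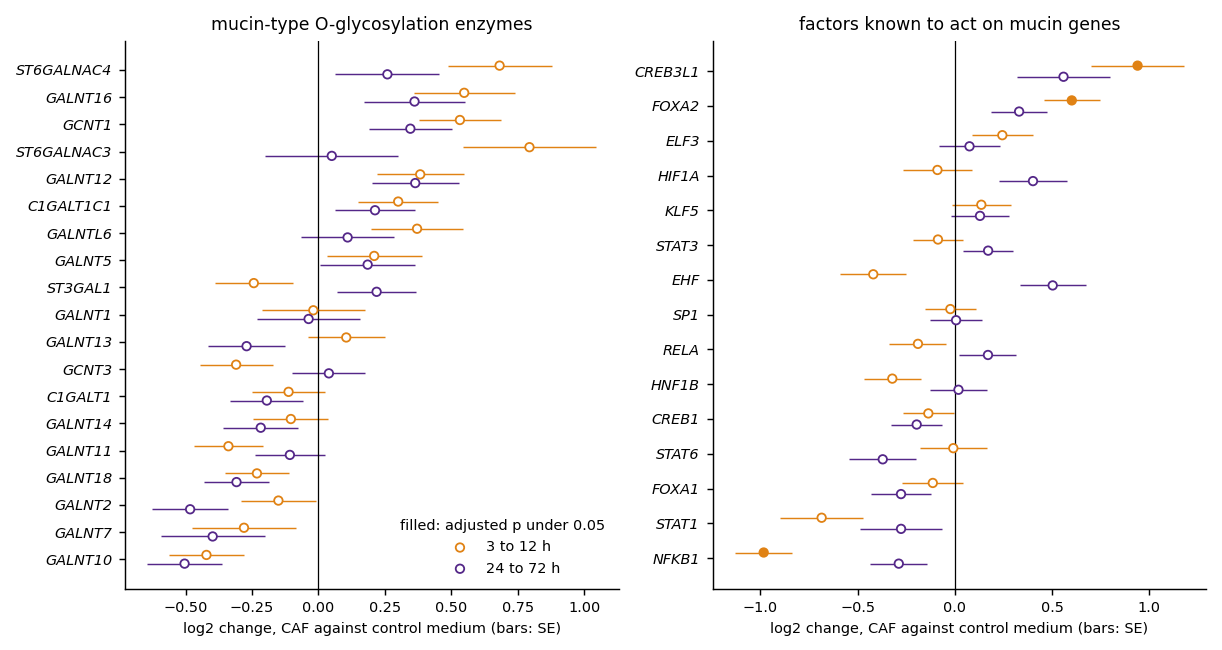
Log2 change in CAF against control medium with its SE (horizontal axes) for tested O-glycosylation enzymes on the left and tested factors known to act on mucin genes on the right, at 3 to 12 h (orange) and 24 to 72 h (violet), with filled points for an adjusted p under 0.05. The filled points are CREB3L1, FOXA2 and NFKB1 at the early times.

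Among partners and sheddases of membrane mucins, 1 of 16 tested genes passed a test between media, the same gene over the 6 times, early and late. Over all tested genes, 6.06% were called higher and 4.13% lower for the 6 times, 3.77% and 1.86% early, and 1.36% and 2.74% late. With time 4 rose (MMP14, ADAM17, SRC and JUP) and 1 fell (ERBB2), beside 21% and 13.3% of all tested genes. MMP14, a membrane protease known to release the MUC1 ectodomain, had 0.98 to 4.6 RPKM in CAF medium and 0.44 to 1.85 RPKM in control medium and was higher at 6 of 6 times. Its log2 change was 1.04 over the 6 times (limma adjusted p = 0.0128), 0.91 early (limma adjusted p = 0.0439) and 1.17 late (limma adjusted p = 0.0179). ADAM17, the main sheddase of MUC1, had a change of 0.05 over the 6 times (limma adjusted p = 0.809). EGFR, which binds MUC1, had an early change of -0.72 (limma adjusted p = 0.0961). The list median over the 6 times was 0.03, against 0.00 for all tested genes.

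Genes for granule packing and secretion were not called between media in limma, with 0 of 14 tested over the 6 times, early or late, where 3589, 3034 and 2561 of all tested genes had an unadjusted p under 0.05. With time 8 of 14 rose and 0 fell, beside 21% and 13.3% of all tested genes. They included AGR2, a disulfide isomerase needed for gel-forming mucins (0.23 per doubling, limma adjusted p = 0.00962), RAB27A, a granule GTPase (0.20, limma adjusted p = 0.000804), and the chloride channel CFTR (0.33, limma adjusted p = 0.00188).

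Of the genes around the mucin loci 26 were in the table and 22 were tested. Over the 6 times limma called 1 higher and 2 lower, early 2 higher and 0 lower, and late 0 higher and 1 lower. Of all tested genes 6.06% and 4.13% were higher and lower over the 6 times, 3.77% and 1.86% early, and 1.36% and 2.74% late. Near MUC1, KRTCAP2 and THBS3 had early log2 changes of -0.27 and 0.25 (limma adjusted p = 0.365 and 0.283). The genes directly beside MUC1, TRIM46 and MIR92B, had means too low to be tested. Near MUC13, the integrin gene ITGB5 had a late change of 0.14 (limma adjusted p = 0.627). UMPS, a pyrimidine synthesis enzyme beyond ITGB5, was lower over the 6 times (-0.46, limma adjusted p = 0.0299). TNK2, a kinase gene beside MUC4, was higher early (0.68, limma adjusted p = 0.0294). TFRC, the transferrin receptor gene in the same region, had 4.84 to 38.2 RPKM in CAF medium and 19.1 to 58.9 RPKM in control medium and was lower late (-1.63, limma adjusted p = 0.0142).

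Genes with the most similar pattern were found by Pearson's r on log2(RPKM + 0.5) and are a description, since libraries share depth and culture time. They have the highest r among 12029 tested genes on only 12 or 6 values, so high r follows from the choice itself. Over the 12 libraries MUC1 was closest to MROH6 (r = 0.92), WARS2 (0.90) and NGDN (0.90), and MUC13 to GOLT1A (0.97), MAP1LC3B2 (0.96) and GSAP (0.96). Over the 6 CAF minus control differences MUC1 was closest to AP3B2 (r = 0.98), TP53RK (0.97) and MSL2 (0.97), and MUC13 to DNASE1L1 (0.99), PHF17 (0.99) and LOC100268168 (0.99). MROH6 had differences of -0.84, -1.06, -1.14, -0.88, -0.58 and 0.15 from 3 to 72 h. It changed sign at 72 h like MUC1, but it was picked for its likeness to MUC1 in these same libraries.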

How the data were processed

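Polyadenylated RNA of A549 cells was measured in 12 libraries, 6 in CAF medium and 6 in control medium, grouped by the treatment and time of the labels. The deposited values are RPKM with 2 decimals, beside a gene model length. TopHat2, edgeR and hg19 are named, without versions, per the submitters' processing notes. The sources used here do not give the annotation, the counting, its use of strand or whether both mates were counted, so reads of overlapping, antisense or near-identical genes cannot be told apart. Repeats within mucin genes may add to this. The small RNA table was not used.

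Depth was recovered from gene models under 400 bases, whose RPKM step by whole reads. All 56 to 81 values checked per library (100%) were whole within 0.1 read, giving 23.9 to 40.6 M reads, and RPKM times length summed to 96.6 to 97.7% of them. Implied reads carry Poisson intervals, and RPKM ratios carry exact binomial intervals from the implied reads, both at 95% and for counting error only.

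Genes averaging at least 1 RPKM were tested as log2(RPKM + 0.5), two-sided with limma 3.58.1 in R 4.3.3 (eBayes with a mean-variance trend, Benjamini-Hochberg over all tested genes at 0.05). Time was a factor, early and late effects shared 1 fit, and change with time was a slope on log2 hours with medium as a term. All of these fits but the early one were run on simulated data. The simulated noise was independent between libraries, so it could not show the effect of dependence between libraries of 1 time. Fold changes on this scale understate changes of low genes, and lower members were fitted with no filter. Each CAF medium library was set against the control of its own time.

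All 7 members are named. List genes could be named where past any of the 5 fits or among the 2 largest changes over the 6 times in their list, and only some of these are, with the 3 most similar genes of each tested member. The members and lists were chosen with earlier results of these data known. Alternatives were other pseudocounts, filters, scalings and priors, no time term, single media and leaving out each time. Gene order came from RefSeq tables for GRCh38.p14, which also gave the promoters. No coordinates of hg19 were used.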

Additional observations from a re-analysis of the deposited data

Results flagged for a closer look

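Of 15 sets of 6 values checked on the log2 scale (levels in each medium and the differences between media), 1 held a value far from the rest, and about 1 in 20 sets would be picked out by chance. MUC5AC in CAF medium was highest at 72 h, at 0.38 RPKM from 61 implied reads, and the gap to the next CAF medium library took 0.788 of the range of the group in log2(RPKM + 0.5), above the critical value of Dixon's test. Without the 72 h pair the late log2 change of MUC5AC was -0.10, against 0.09 with it, and neither passed the test. MUC5B, the neighbouring gene, had 0.29 RPKM in that library, below its 0.34 RPKM in CAF medium at 48 h.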

How the results depend on the processing

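Counts of genes called by limma depended on the fit, and leaving out a time means leaving out both of its libraries. Over the 6 times 1226 genes were called, but 0 unfiltered (4744 had an unadjusted p under 0.05) and 0 with no time term, which drops the pairing of libraries by time and so has no replicate block (1691 unadjusted). Leaving out single times gave 34 (6 h) to 1399 (3 h), with 35 without 12 h, 117 without 24 h and 729 without 48 h. Early the count was 677, with 0 unfiltered (3797 unadjusted), 0 without 12 h (2187 unadjusted), 5 without 6 h and 1084 without 24 h. Late it was 492, with 36 unfiltered, 0 with no time term (763 unadjusted), 31 without 48 h, 277 without 24 h and at most 542 (without 3 h). For the late minus early difference it was 50, with 28 at a mean of at least 0.3 RPKM, 17 with a line on log2 hours (added after the data were seen), 242 without 24 h and 3 without 72 h. There it was 0 unfiltered (1968 unadjusted), 0 with no variance trend (1369 unadjusted) and 0 without 3, 6, 12 or 48 h (823 to 1438 unadjusted). For change with time it was 4135, with 1394 in CAF medium alone, 2443 in control medium alone, and, with single times left out, 1572 (72 h), 2649 (48 h) and 2668 (6 h) to 4296 (12 h).

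With single times left out, MUC1 ranged from -0.72 to -0.39 over the 6 times, from -0.97 to -0.68 early and from -0.51 to 0.12 late (0.12 without 24 h). Its early change stayed -0.86 unfiltered and -0.89 after quantile normalization, and neither passed. Its slope was -0.17 unfiltered (adjusted p = 0.0526), -0.022 in CAF medium alone and -0.20 to -0.14 with single times left out. MUC13 ranged from -0.10 (without 12 h) to 0.22 early, and its slope was 0.17 in control medium alone and 0.13 (without 72 h) to 0.36 with single times left out. Among low genes, signs reversed for MUC5AC late (-0.10 without 72 h, to 0.30) and with time (0.031 without 3 h, 0.026 without 48 h, 0.085 in CAF medium alone, down to -0.077), MUC5B late (0.29 without 24 h, down to -0.43) and with time (0.094 in CAF medium alone), and MUC20 early (-0.071 median-centred, -0.036 quantile-normalized, -0.084 without 3 h, to 0.17). Of the alternatives run, 59 of 72 kept direction and side of the threshold for MUC1, 69 of 72 for MUC13, 58 of 62 for MUC5AC, 65 of 67 for MUC5B and 59 of 62 for MUC20. These counts include alternatives that could not move an estimate. Without the 24, 48 or 72 h pair, for example, the early MUC1 change stayed -0.86. MUC5AC, MUC5B and MUC20 passed in no setting, so for them the counts reflect direction only. The cause of the shifts between settings was not tested. Rounding to 2 decimals and low read numbers limit MUC5AC, MUC4 and MUC16.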
